A study of Mus musculus with 10 samples.

Results

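The genes that make, break down, bind and sense retinoic acid were followed in Olig2-Cre lineage cells of the mouse embryonic spinal cord. They were chosen by name as the 2 retinaldehyde dehydrogenases Aldh1a2 and Aldh1a3, the 2 hydroxylases Cyp26a1 and Cyp26b1, the cellular binding proteins Crabp1 and Crabp2, and the nuclear receptors Rara, Rarb and Rarg. These are 9 of the 48974 genes with counts, and 8 of them were among the 17838 genes that passed the filter on low counts. Aldh1a3 did not pass.

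RNA was sequenced from YFP-positive cells sorted by FACS from embryos at e10.5, with 5 control and 5 cdKO samples. Control embryos were Olig2-Cre+/-, Rosa26R-YFP+/-, Oc1+/Flox and Oc2+/Flox, so that every control carried the recombinase, the reporter and a floxed allele of both Oc1 and Oc2. Recombined control cells thus keep only the unfloxed allele of each of these genes. The cdKO (conditional double knockout) embryos had the same Cre and reporter alleles and were Oc1-/Flox and Oc2-/Flox. This design removes the Onecut transcription factors Oc1 and Oc2 from recombined cells, and the paper reports that expression of Oc3 is then lost too. The Olig2-Cre driver acts in motor neuron progenitors and also labels V3 interneurons, so each sample holds progenitors, motor neurons and some V3 cells together. The labels do not say whether a sample is 1 embryo or a pool, and p-values measure only the spread between these samples. The stage is that of the sample titles, since the descriptions hold a number that changes from sample to sample.

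Retinoic acid is made from retinol in a pair of oxidation steps, the first carried out by enzymes such as Rdh10 and the second by the Aldh1a family. In the spinal cord it reaches progenitors and young neurons from the paraxial mesoderm, and motor neurons of the lateral motor column at limb levels themselves express Aldh1a2 and provide a local source. Cyp26 enzymes oxidise and clear the signal, Crabp proteins carry it in the cytoplasm, and Rar receptors bind DNA together with Rxr partners. Rarb and Cyp26a1 are classical target genes that are switched on by retinoic acid through response elements in their promoters.

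These response elements are shown because Rarb and Cyp26a1 are the members that would report the signal. In the RefSeq promoter windows (250 bases before to 50 bases after each start, GRCm38.p6), available for 7 of the 9 genes, a search on both strands was made for the retinoic acid response element known as DR5, a direct repeat whose half-sites are 5 bases apart. It was found in Rarb and Cyp26a1 and in none of the other 5, and in 106 of all 32851 windows (0.323%). The 250 bases before each start are given 5′ to 3′ on the strand of the gene, with the matching letters in capitals. The Rarb window lies on the minus strand at chr14:16575477-16575726, with the element 53 to 37 bases before the start. The Cyp26a1 window lies on the plus strand at chr19:37697558-37697807, with the element 32 to 16 bases before the start, read on the opposite strand. A match describes the letters and not binding.
Rarb: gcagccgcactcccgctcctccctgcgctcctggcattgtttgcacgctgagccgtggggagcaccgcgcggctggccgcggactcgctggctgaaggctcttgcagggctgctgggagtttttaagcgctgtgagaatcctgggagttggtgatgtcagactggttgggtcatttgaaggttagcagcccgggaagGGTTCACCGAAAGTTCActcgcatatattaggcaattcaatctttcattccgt
Cyp26a1: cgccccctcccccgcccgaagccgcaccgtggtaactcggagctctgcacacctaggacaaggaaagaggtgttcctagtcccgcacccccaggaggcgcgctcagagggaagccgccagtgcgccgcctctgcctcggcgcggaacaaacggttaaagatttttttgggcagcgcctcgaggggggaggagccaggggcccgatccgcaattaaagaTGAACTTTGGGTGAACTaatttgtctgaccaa

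The libraries had similar depth but not similar coverage. Levels are given as CPM, the counts of a gene per 1000000 counts of the library. Total counts over exon bins (non-overlapping parts of exons) were 63932395 to 107709534 in control and 72315782 to 84249157 in cdKO samples. At least 1 count was found on 262301 to 271591 bins in control replicates 1 to 4 and on 243970 bins in control replicate 5. In the cdKO samples it was found on 254982 to 264487 bins in replicates 1 to 4 and on only 198569 bins in replicate 5. In this last library the counts of Aldh1a2, Rarb and Rara lay more toward their 3′ ends. The last bin held 43.1% of its Aldh1a2 counts against 11.5% to 16.98% in the other samples with more than 10 counts, 58.7% of its Rarb counts against 35.8% to 39.8%, and 32.9% of its Rara counts against 1.49% to 2.87%. Values that moved most without this library are also given without it. As a check of the labels, exon 1 of Oc1 (Onecut1; chromosome 9, 74861921 to 74863401) had 125, 80, 205, 210 and 63 counts in the control samples and 0, 17, 0, 3 and 0 in the cdKO samples.

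Across all 17838 genes, edgeR's quasi-likelihood test called 0 between cdKO and control (0% at an adjusted p of 0.05; lowest adjusted p = 0.0815). DESeq2's Wald test, without this filter, called 19 of 29537 genes, and limma-voom called 3 of the 17838. At an unadjusted p of 0.05, edgeR listed 891 genes (4.99%), of which 745 (4.18%) were higher and 146 (0.818%) lower in cdKO samples. None of the 8 retinoid genes passed the adjusted threshold by any of these 3 tools, and their lowest adjusted p was 0.939 with edgeR. At the unadjusted threshold 1 of the 8, Rarg, was higher and 0 were lower. The members' median log2 fold change was -0.29, with 3 above and 5 below 0, and that of all genes was -0.018.

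**Figure D1:**
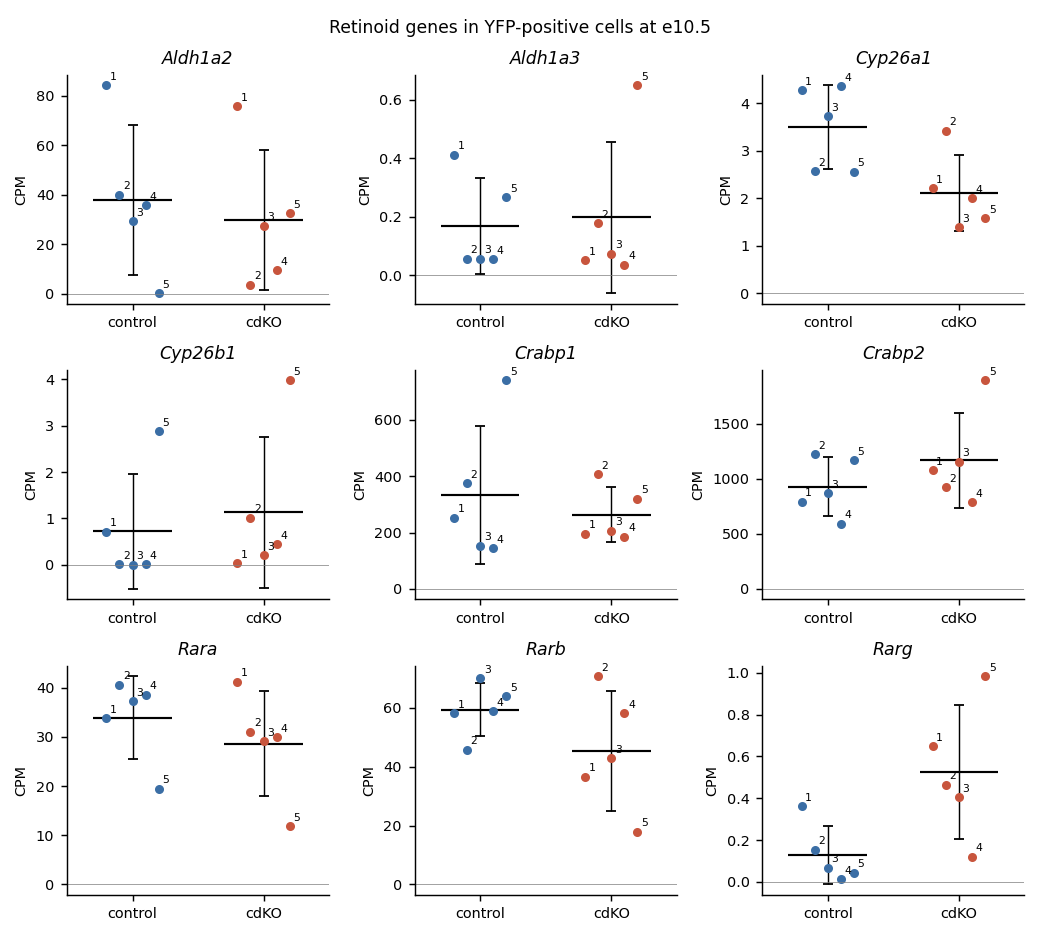
Levels of the 9 retinoid genes in CPM (vertical axes, each with its own scale) in 5 control (blue) and 5 cdKO (red) samples, with replicate numbers beside the points, lines at the group means and bars of 1 SD. The groups overlap for every gene, and Aldh1a2 runs from 0.148 to 84.5 CPM within the control group alone.

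Synthesis was represented almost wholly by Aldh1a2 (RALDH2; chromosome 9, 71215789 to 71296243, plus strand, 14 exon bins, none shared with another gene). Its level in CPM, scaled to the library size by TMM, was 84.5, 40.1, 29.4, 35.8 and 0.148 in control replicates 1 to 5, and 76.0, 3.69, 27.4, 9.48 and 32.6 in cdKO replicates 1 to 5. The highest sample of each group had similar levels, and the lowest sample of all was a control with 10 counts, against 8415 in control replicate 1. The highest value was 572 times the lowest, and the groups overlapped over nearly their whole range. Means were 38.0 ± 30.3 CPM in control and 29.8 ± 28.5 CPM in cdKO samples (SD, n = 5 each). The log2 fold change of -0.35 (SE 0.96; edgeR adjusted p = 0.998; exact two-sided permutation p = 0.992) was smaller than its error, and its sign changed to 0.18 when control replicate 1 was left out and to 0.34 with limma-voom. Without replicate 5 of both groups it was -0.71 (SE 0.75). In these sorted bulk samples, fewer cells expressing a gene and less of its RNA per cell cannot be told apart.

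Aldh1a3, a related dehydrogenase, was close to the limit of counting. It had 41, 6, 5, 4 and 18 counts in the control and 4, 15, 6, 3 and 33 counts in the cdKO samples, where 3 counts correspond to between 0.0288 and 0.0591 CPM. Its highest level, 0.650 CPM in cdKO replicate 5, was far below the Aldh1a2 level of every sample but control replicate 5. Of the 33 counts in cdKO replicate 5, 32 lay on exon bin 12, as did all 18 of control replicate 5 and all 15 of cdKO replicate 2.

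The variation of Aldh1a2 was present along the whole transcript. Control replicate 5 was the lowest sample in 14 of the 14 exon bins, cdKO replicate 2 the second lowest in 13, and control replicate 1 the highest in 9. The other bins had cdKO replicate 1 highest, except the last, where cdKO replicate 5 was highest with 14.0 CPM. The first 7 bins held 39.7% to 48.4% of the gene's counts in 8 samples, 8.65% in cdKO replicate 5 and 0 of 10 counts in control replicate 5. A gene sum over all bins thus places cdKO replicate 5 lower in the order than its last exon does. Between cdKO and control, no bin differed at p of 0.05 (exact two-sided permutation tests, p between 0.444 and 0.937, unadjusted).

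**Figure D2:**
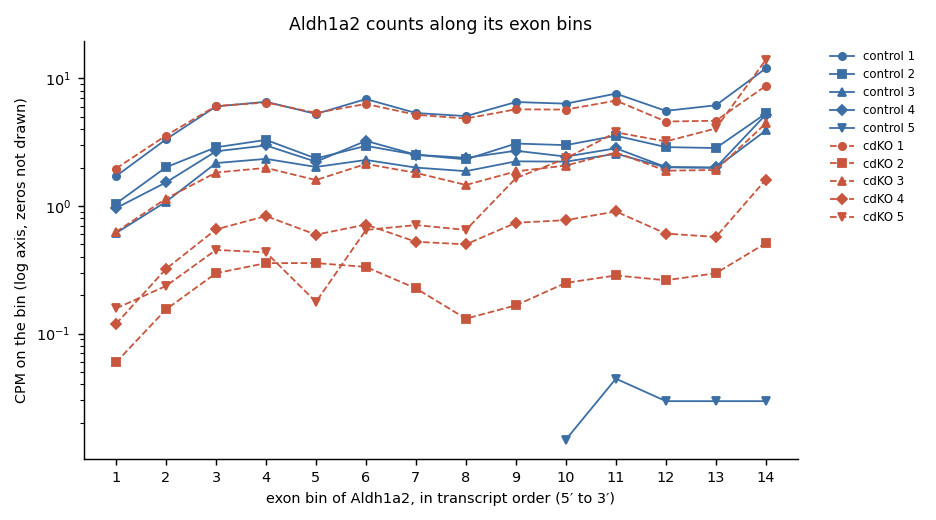
Aldh1a2 CPM on each of its 14 exon bins, 5′ to 3′ (horizontal axis), on a log axis, with 1 line per sample (blue solid for control, red dashed for cdKO) and zeros not drawn. Lines run in parallel over most of the gene, apart from cdKO replicate 5, which climbs to 14.0 CPM on the last bin, and control replicate 5, which has counts only on the last 5 bins.

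Of the degrading enzymes, Cyp26a1 (chromosome 19, 37697798 to 37701536) had the lower mean in cdKO samples and did not reach the adjusted threshold. It was 4.28, 2.57, 3.73, 4.37 and 2.56 CPM in the control samples and 2.21, 3.43, 1.39, 2.00 and 1.58 CPM in the cdKO samples. All 5 cdKO samples were below the control mean of 3.50 ± 0.889 CPM (SD, n = 5), and 4 of the 5 were below every control sample, with cdKO replicate 2 the exception. The cdKO mean was 2.12 ± 0.800 CPM. Its log2 fold change was -0.72 (SE 0.36; edgeR p = 0.0642, adjusted p = 0.939; exact two-sided permutation p = 0.0397, unadjusted). It kept its sign under all 19 alternatives, between -0.97 and -0.62, with an adjusted p above 0.05 in each.

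Cyp26b1, the related enzyme, was nearly absent from several samples and high in others. Its counts were 71, 1, 0, 1 and 195 in the control samples and 3, 85, 17, 37 and 202 in the cdKO samples, so that both replicates 5 stood highest, at 2.88 and 3.98 CPM. In neither of these did a count fall on exon bins 3 to 11 of its 13 bins. Bins 12 and 13 held 98 and 66 counts in control replicate 5, and 107 and 93 in cdKO replicate 5. These highest values thus rest on the ends of the gene, whereas cdKO replicate 2 also had counts on bins 7 to 11. A log2 fold change of 0.65 (SE 1.40; edgeR adjusted p = 0.997; exact permutation p = 0.532) became -0.72 without cdKO replicate 5. No direction can be read for this gene.

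The 2 cellular retinoic acid binding proteins were by far the most abundant members. Per kilobase of summed exon bins, the mean over the 10 samples was 794 CPM for Crabp2 and 372 CPM for Crabp1, followed by Rarb at 17.2, Aldh1a2 at 14.97, Rara at 7.17, Cyp26a1 at 1.58, Cyp26b1 at 0.174, Rarg at 0.0794 and Aldh1a3 at 0.0397. Reads that cross several bins are counted on each of them, so this order is approximate. Rarb and Aldh1a2, neighbours in it, do not differ beyond the spread of Aldh1a2 over samples.

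Crabp1 was 253, 376, 154, 144 and 740 CPM in control and 195, 408, 207, 185 and 320 CPM in cdKO samples. Control replicate 5, the sample nearly without Aldh1a2, had the highest Crabp1 level. Between groups, the log2 fold change was -0.34 (SE 0.44; edgeR adjusted p = 0.997; exact permutation p = 0.810), and 0.18 without that sample. Crabp2 was 794, 1225, 870, 594 and 1172 CPM in control and 1081, 924, 1156, 788 and 1896 CPM in cdKO samples. Its groups overlapped, and the log2 fold change of 0.33 (SE 0.31; edgeR adjusted p = 0.997; exact permutation p = 0.349) fell to 0.093 without cdKO replicate 5, the highest sample.

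Among the receptors, Rarb and Rara were well expressed and Rarg was barely detected. Rarb (chromosome 14, 16430839 to 16819156, minus strand) was 58.1, 45.7, 70.1, 58.8 and 63.9 CPM in control and 36.6, 70.8, 42.8, 58.2 and 17.9 CPM in cdKO samples. The lowest value was that of cdKO replicate 5, while cdKO replicate 2 was the highest of all. Its log2 fold change was -0.39 (SE 0.34; edgeR adjusted p = 0.997; exact permutation p = 0.175) and -0.18 without cdKO replicate 5. Of the Rarb counts, 55.5% lay on 3 bins shared with Top2b on the opposite strand, and the counts do not use strand. On the 5 bins of Rarb alone the means were 26.9 ± 4.06 CPM in control and 19.5 ± 9.37 CPM in cdKO samples (SD, n = 5 each; exact two-sided permutation p = 0.119).

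Rara, which is expressed in most embryonic tissues, was 33.8, 40.6, 37.2, 38.6 and 19.5 CPM in control and 41.2, 31.1, 29.1, 30.0 and 11.8 CPM in cdKO samples. The lowest sample of each group was its replicate 5. Its log2 fold change was -0.24 (SE 0.34; edgeR adjusted p = 0.997; exact permutation p = 0.460), -0.047 without cdKO replicate 5 and -0.20 without both replicates 5.

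Rarg was higher in cdKO samples at the unadjusted threshold, from very few counts. It had 36, 16, 6, 1 and 3 counts in control and 51, 39, 33, 10 and 50 counts in cdKO samples, or at most 0.361 CPM in the first group and 0.985 CPM in the second. A read that crosses several bins is counted on each, so these counts can exceed the reads behind them. The adjoining exon bins 9, 10 and 11 held 8, 7 and 9 of the 50 counts in cdKO replicate 5. Of the cdKO samples, 4 exceeded every control sample and replicate 4 did not. The log2 fold change of 1.99 (SE 0.78; edgeR p = 0.0236, adjusted p = 0.939; exact two-sided permutation p = 0.0317, unadjusted) was 1.41 without both replicates 5, with an unadjusted edgeR p of 0.102, and 2.84 without control replicate 1, the highest control.

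The other genes of the pathway did not differ at the adjusted threshold either. Of 24 genes for retinol transport, oxidation, Rxr receptors and receptor cofactors, 18 were tested and 0 called, and 0 were higher and 2 lower at an unadjusted p of 0.05, against 4.18% and 0.818% of all genes. Their median log2 fold change was -0.10. Lrat, Dhrs9, Adh7, Aldh1a1, Cyp26c1 and Cyp1b1 did not pass the filter.

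The first of the 2 was Rdh10, the retinol dehydrogenase that supplies retinaldehyde to the Aldh1a enzymes. It was 7.88, 6.18, 6.86, 6.62 and 4.39 CPM in control and 3.68, 4.02, 3.04, 4.03 and 4.29 CPM in cdKO samples. Every cdKO sample was below every control sample, although control replicate 5 exceeded the highest cdKO sample only narrowly. Such separation was seen in 72 of the 17838 genes (0.404%), 40 of them lower (0.224%), and in 1 of the 18 pathway genes and 0 of the 8 members. Its log2 fold change was -0.74 (SE 0.29; edgeR p = 0.0227, adjusted p = 0.939; exact two-sided permutation p = 0.00794, the smallest that 5 against 5 samples allow), and -0.91 without both replicates 5.

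Rxrg, a partner receptor, was the second. It was 14.6, 10.6, 5.45, 7.76 and 1.77 CPM in control and 3.34, 2.55, 3.82, 2.67 and 6.32 CPM in cdKO samples. The 3 highest values were those of control replicates 1, 2 and 4, and control replicate 5 was the lowest of all. Its log2 fold change was -1.10 (SE 0.49; edgeR p = 0.0398, adjusted p = 0.939; exact permutation p = 0.159) and -1.64 without both replicates 5. At the other end of the list stood Adh1, a retinol-oxidising alcohol dehydrogenase below 2 CPM, with 1.76 (SE 0.89; exact permutation p = 0.190). This value was 0.79 without cdKO replicate 5, the highest sample with 99 counts, and 2.84 without control replicate 1, the highest control.

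The retinoic acid response genes did not differ at the adjusted threshold either. Of 20 genes known to be induced by retinoic acid in embryos or embryonic cells, including Rarb, Cyp26a1 and Crabp2, 19 were tested and 0 were called. At an unadjusted p of 0.05, 0 were listed in either direction, against 4.99% of all genes. The median log2 fold change was -0.16, with 7 above and 12 below 0. Toward the ends of the list stood Hoxb4, at 0.60 but -0.45 without cdKO replicate 5, and Cyp26a1 and Stra6, the retinol transporter, at -0.72 and -0.61. Among the 102 genes with a DR5 match in a promoter window, 37 were tested and 0 called, 0 were listed at an unadjusted p of 0.05, and the median log2 fold change was -0.24. With 4.99% of all genes listed, 0 in lists of 19 and 37 genes says little.

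**Figure D3:**
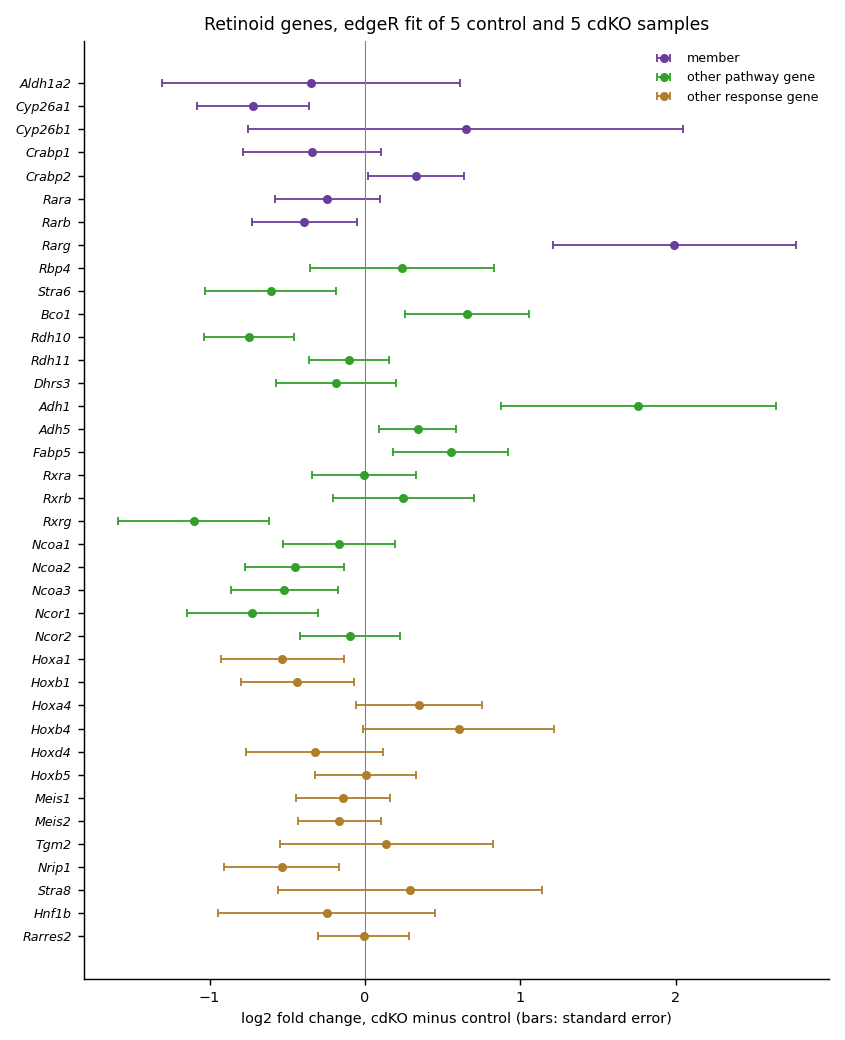
The log2 fold change between cdKO and control samples (horizontal axis; bars are 1 standard error of the edgeR fit, 5 samples per group) for the retinoid genes, other pathway genes and other response genes that were tested and are reported here. Most bars reach or come close to 0, and Rarg at 1.99 and Rxrg at -1.10 lie farthest from it among those at an unadjusted p under 0.05.

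Whether response genes followed Aldh1a2 from sample to sample was examined over the 10 samples on the scale of log2(CPM + 0.5). Of 19 correlations, 0 passed after Benjamini-Hochberg adjustment (lowest adjusted permutation p = 0.177 for Pearson's r and 0.234 for Spearman's rho). In all 10 samples 9 were positive and 10 negative, with a median r of -0.0044. This balance depends on cdKO replicate 2 and control replicate 5, since 12 of the 19 were positive without them. The highest r was then 0.85 for Dhrs3 (-0.19 in all samples), followed by 0.75 for Rarres2 (0.58 in all samples), both untested. The 2 promoters printed above belong to genes that did not track Aldh1a2. For Rarb, r was -0.38 (rho -0.54; permutation p = 0.245 and 0.112; adjusted p = 0.583 and 0.534), and -0.13 without cdKO replicate 2 and control replicate 5, the samples farthest from the median of Aldh1a2. For Cyp26a1, r was 0.066 (rho 0.31; permutation p = 0.865 and 0.386; adjusted p = 0.986 and 0.644), and 0.38 without these 2. Control replicate 5, with 0.148 CPM of Aldh1a2, had 63.9 CPM of Rarb, the second highest of the controls.

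Stra6 had the highest rho of the 19. Its r was 0.61 (rho 0.77; permutation p = 0.0546 and 0.0123; adjusted p = 0.250 and 0.234), and 0.47 without the 2 farthest samples. Its level was 19.4, 24.6, 14.2, 19.3 and 6.89 CPM in control and 19.6, 7.98, 13.4, 9.86 and 4.55 CPM in cdKO samples. It was low in cdKO replicate 5, which departs from the order of Aldh1a2, and near the order of Aldh1a2 elsewhere.

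Without cdKO replicate 5 the relation of Stra6 with Aldh1a2 passed. Over the 9 remaining samples r was 0.90 (rho 0.93; exact permutation p = 0.000331 and 0.00075; adjusted p = 0.00628 and 0.0142), and 0.80 when cdKO replicate 2 and control replicate 5 were also left out. This alternative was chosen after the values were seen. With group means subtracted in all 10 samples, r for Stra6 was 0.69 (adjusted permutation p = 0.179).

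**Figure D4:**
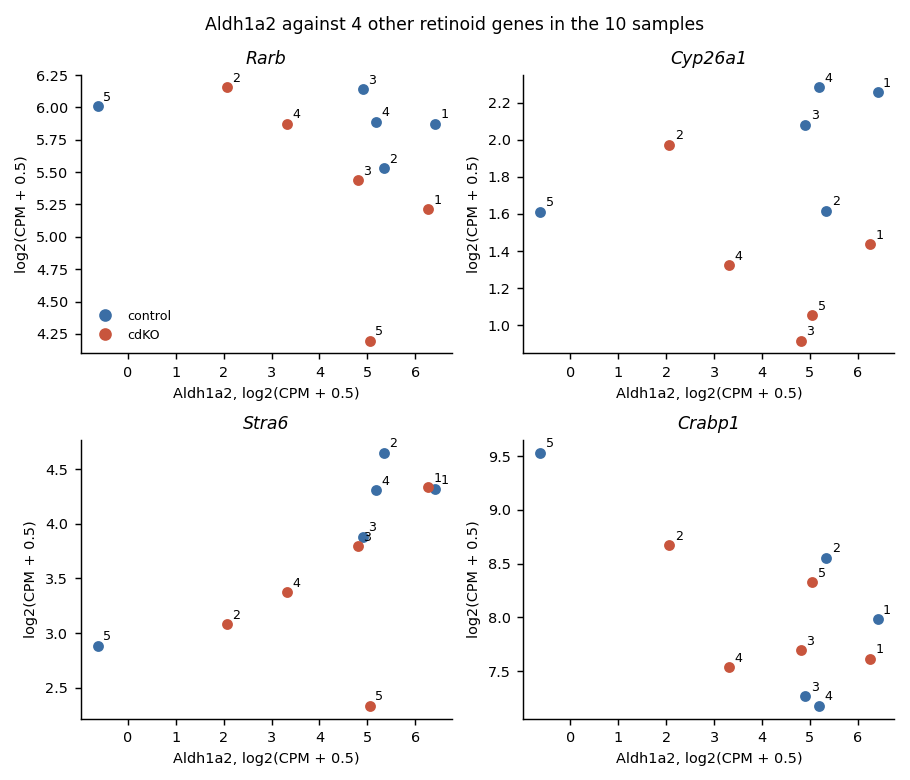
Levels of Rarb, Cyp26a1, Stra6 and Crabp1 (vertical axes) against Aldh1a2 (horizontal axes), both as log2(CPM + 0.5), in 5 control (blue) and 5 cdKO (red) samples with their replicate numbers. Stra6 climbs with Aldh1a2 apart from cdKO replicate 5, Rarb and Cyp26a1 do not climb with it (r -0.38 and 0.066), and the highest Crabp1 is that of control replicate 5 at the far left.

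The genes whose levels were most like that of Aldh1a2 were ranked by Pearson's r over the 10 samples. In order of falling Aldh1a2, the samples were control 1, cdKO 1, control 2, control 4, cdKO 5, control 3, cdKO 3, cdKO 4, cdKO 2 and control 5. Of the 13541 genes with a mean of at least 1 CPM, those with the highest r were Cish, Nlgn3, Bmp7, Gm44354 and Oprl1 (all 0.97), and those with the lowest were Nkx2-9, Tbp, Dnajc9, Gm10459 and Clp1 (all -0.95). These coefficients are the extremes of a ranking and carry no test. They lean on control replicate 5, which lay at an end of the range for each of these genes. Bmp7 was 0.325 CPM there against 1.89 to 15.3 CPM in the other samples, and Tbp 269 CPM against 110 to 155 CPM. Nkx2-9, a homeobox gene of ventral progenitors, was 84.5 CPM in control replicate 5 and 28.8 CPM in cdKO replicate 2, the 2 samples lowest in Aldh1a2, and 7.89 to 14.5 CPM in the others.

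The 2 samples with the least Aldh1a2 were also lowest in some neuronal marker genes but not in others, and the genes in this paragraph were chosen after their values were seen. Lhx1, which marks lateral motor column neurons and interneurons, was 0.621 CPM in control replicate 5 and 2.40 CPM in cdKO replicate 2, against 7.004 to 20.4 CPM in the others. Slc18a3, the vesicular acetylcholine transporter of motor neurons, was 20.9 and 53.6 CPM there, the second value only just under the 54.8 to 189 CPM of the others. Sim1 and Uncx, V3 neuron genes, were 0.148 and 0.0443 CPM in control replicate 5 and 0.666 and 0.535 CPM in cdKO replicate 2, where every other sample had at least 1.28 CPM of Sim1 and 1.61 CPM of Uncx. Hes5, a Notch target of dividing progenitors, was highest in control replicate 5 at 1939 CPM, but cdKO replicate 2 with 958 CPM lay inside the range of the others, 559 to 1414 CPM. Isl1, a motor neuron transcription factor, went the other way, with its highest level of all samples, 347 CPM, in control replicate 5 and a mid-range 164 CPM in cdKO replicate 2. Lhx3 and Mnx1, also motor neuron factors, were 52.6 and 29.9 CPM in control replicate 5 and 123 and 57.1 CPM in cdKO replicate 2, where the other samples had 33.5 to 189 CPM and 33.9 to 72.6 CPM.

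The summed levels of 13 marker lists gave no relation with Aldh1a2 that passed adjustment, in a family of 17 that also held Cyp26b1, Crabp1, Rara and Rarg (lowest adjusted permutation p = 0.0535). Motor neuron markers (8 of 8 passed the filter) summed to 531 to 693 CPM in control and 309 to 791 CPM in cdKO samples, and had r of 0.28 (rho 0.67; adjusted permutation p = 0.494 and 0.466). Lateral motor column markers without Aldh1a2 (5 of 5) summed to 213 to 441 and 171 to 329 CPM, with r of -0.28 (adjusted permutation p = 0.496). Progenitor markers (7 of 7) summed to 821 to 2272 and 904 to 1756 CPM, with r of -0.53 (adjusted permutation p = 0.262). Such sums are weighted to the most abundant genes. In control replicate 5, Isl1 alone gave 347 CPM of the motor neuron sum of 531 and of the lateral motor column sum of 433. Hes5 gave 1939 of the 2272 CPM of its progenitor sum. These coefficients therefore do not decide whether the other genes of a list follow Aldh1a2.

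The V3 interneuron list (4 of 4), carried by Nkx2-9 in the low samples, summed to 24.0 to 99.8 and 21.7 to 39.2 CPM and had r of -0.89 (rho -0.56; adjusted permutation p = 0.0535 and 0.466), which dropped to -0.33 without the 2 farthest samples. The floor and roof plate list (4 of 5) summed to 12.4 to 51.4 and 15.9 to 25.0 CPM, with r of -0.75, and 0.19 without these 2. Crabp1 behaved likewise, with r of -0.69 (rho -0.32; adjusted permutation p = 0.149 and 0.626) and 0.23. These negative coefficients rest on the 2 lowest samples.

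Hox genes, which mark position along the body, also differed in level between samples. Lumbar Hox genes (6 of 6) summed to 0.873 CPM in control replicate 1 and 1.23 CPM in control replicate 5, against 28.9 to 50.2 CPM in the other controls and 13.3 to 94.2 CPM in cdKO samples. The sample with the most Aldh1a2 and the sample with the least thus were the 2 that hardly had lumbar Hox transcripts, and r was 0.41 (adjusted permutation p = 0.370) and turned to -0.45 without the 2 farthest samples. Brachial Hox genes (6 of 6) summed to 126 to 179 and 92.7 to 265 CPM with r of 0.44, and thoracic Hox genes (3 of 3) to 64.0 to 148 and 75.8 to 155 CPM with r of 0.60 (adjusted permutation p = 0.370 and 0.226). Without the 2 farthest samples these became 0.11 and 0.013.

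Genes of mesoderm, the other source of retinoic acid, ranged from nearly absent to well counted, with 550 to 9753 counts per sample for Dcn. Of 16 mesenchyme and somite genes, 13 passed the filter and 8 were under 1 CPM in every sample. The sum was 21.2 to 125 CPM in control and 32.7 to 146 CPM in cdKO samples, mostly from Dcn (8.13 to 118 CPM), lowest in control replicate 5 and 125 CPM in control replicate 1, with r of 0.65, and 0.090 without the 2 farthest samples. Erythroid genes (6 of 7) summed to 0.901 to 19.0 and 2.83 to 66.1 CPM, endothelial genes (5 of 7) to 1.66 to 3.66 and 1.75 to 3.45 CPM, macrophage genes (1 of 8, Csf1r) to 3.15 to 5.26 and 3.30 to 6.93 CPM, and neural crest and sensory neuron genes (4 of 7) to 17.5 to 47.0 and 8.63 to 33.5 CPM. In none of the 13 lists did cdKO differ from control at p of 0.05 (exact two-sided permutation tests, lowest p = 0.071). The part of cell composition, body level, dissection or coverage in the Aldh1a2 level was not tested.

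**Figure D5:**
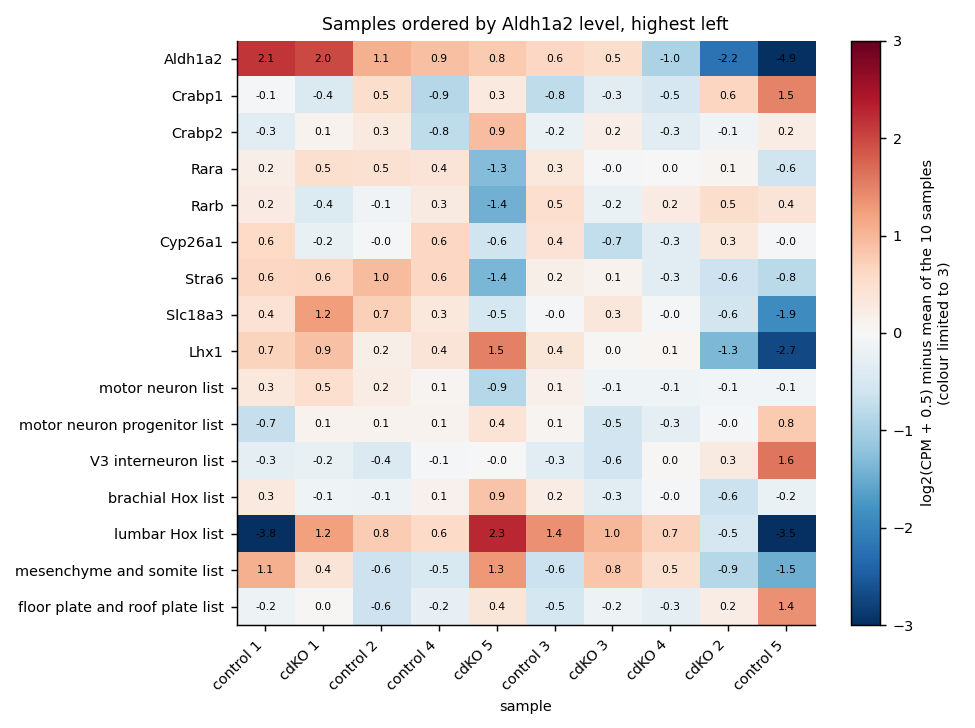
Retinoid genes, 2 neuronal genes and summed marker lists (rows) in the 10 samples (columns, ordered by falling Aldh1a2), as log2(CPM + 0.5) minus the mean of the row, with the values printed in the cells and the colour limited to 3. Stra6 and Lhx1 are low in the last 2 columns, but cdKO replicate 5 has the lowest Stra6 and the highest Lhx1 of all samples. Rarb and Cyp26a1 do not fall toward the right with Aldh1a2, and lumbar Hox genes are low in both the first and the last column.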

How the data were processed

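The authors sorted YFP-positive cells, made libraries from 10 samples and deposited raw counts of reads on exon bins, without normalization. The submitters' processing notes name bcl2fastq 2.17, Trimmomatic 0.36, STAR 2.5.2b, Subread 1.5.2, DESeq2 and GRCm38, with no roles. A read was counted on each bin it overlapped, without regard to strand, so gene sums grow with the number of bins that reads cross. Replicates are numbered as in the sample titles, and the number in the name of each count column is 1 higher.

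Bins were summed per gene with GENCODE M21 (49384 of 49644 identifiers matched). Left out were 3996 bins (1.19% of the counts) of joined gene units that could not be assigned to a single gene. Other bins that a second gene overlaps were kept, such as those of Rarb shared with Top2b. After filterByExpr (minimum count 10) and TMM scaling, groups were compared by the quasi-likelihood test of edgeR 4.0.16 (R 4.3.3), with Benjamini-Hochberg adjustment over 17838 genes. TMM factors were 0.947 to 1.165, except 0.717 in cdKO replicate 5. The floor of 3 counts covers counting error only, whereas the SDs and SEs include the spread between samples. Exact permutation tests used all 252 arrangements of log2(CPM + 0.5), and correlations over 10 samples used 100000 permutations. DESeq2 1.42.0 and limma 3.58.1 served as alternatives. Of 20 pairs of samples within a group, none agreed within sampling noise (chi-square per degree of freedom 122 to 1929).

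The members and lists were chosen with earlier results of these data known. All 9 members were named, then pathway and response genes at an unadjusted p under 0.05 or among the 2 highest or lowest fold changes of a list, the 5 genes at each end of the ranking by r with Aldh1a2, and leading marker genes. Other genes are identified where they appear. Not every gene covered by this rule is reported here.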

Additional observations from a re-analysis of the deposited data

Results flagged for a closer look

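Of 60 groups of 5 samples examined, 11 held a sample that stood apart by Dixon's criterion. About 3.0 would be due for independent groups of normally distributed values. The 60 groups reuse the same 10 samples and CPM values are skewed, so the 11 cannot be judged against that number. Of the 11, 5 were in cdKO replicate 5, 4 in control replicate 5 and 2 in control replicate 1.

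In cdKO replicate 5, Aldh1a3 was 0.650 CPM (0.0358 to 0.178 in cdKO replicates 1 to 4), Cyp26b1 3.98 CPM (0.0381 to 1.01), Hoxb4 8.61 CPM (1.14 to 1.64) and the brachial Hox sum 265 CPM (92.7 to 141), and 198569 exon bins had counts (254982 to 264487). In control replicate 5, Cyp26b1 was 2.88 CPM (0 to 0.713 in the other controls), Hoxb4 3.65 CPM (1.22 to 1.53), the V3 interneuron sum 99.8 CPM (24.0 to 31.1) and the floor and roof plate sum 51.4 CPM (12.4 to 17.4). Nkx2-9, a gene of ventral progenitors, gave 84.5 CPM of that V3 sum. The V3 neuron genes Sim1 and Uncx were 0.148 and 0.0443 CPM there, their lowest levels of all samples. In control replicate 1, Adh1 was 0.592 CPM (0.0591 to 0.125) and the mesenchyme and somite sum 125 CPM (21.2 to 42.9). Aldh1a2 in control replicate 5 did not meet this criterion, which was applied here to CPM values and not on a log scale. On the CPM scale the other controls are themselves spread widely, from 29.4 to 84.5 CPM against 0.148 CPM. In counts, this sample had 10 against 2582 to 8415 in the other controls. The miss therefore does not show that control replicate 5 lies within the spread of the other controls.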

How the results depend on the processing

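No retinoid member, other pathway gene or response gene was called under any of the 19 alternatives to the edgeR fit (other scalings, no filter, DESeq2, limma-voom, the replicate number as a block, other sets of bins, each sample left out, and both replicates 5 left out, the last chosen after seeing the data). Scaling by library size alone moved the median over all genes, on the log2 scale, from -0.018 to -0.150. The number of response genes related to Aldh1a2 went from 0 to 1 with group means subtracted and ranged from 0 to 2 with each sample left out, reaching 2 without cdKO replicate 5.

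Signs turned as follows. The fold change of Aldh1a2 was 0.34 with limma-voom and ranged from -1.06 to 0.18 with each sample left out, 0.18 without control replicate 1. That of Crabp1 ranged from -0.56 to 0.18, and was 0.18 without control replicate 5 and 0.093 without both replicates 5. That of Cyp26b1 ranged from -0.72 to 2.58, and that of Hoxb4 from -0.45 to 1.01, with -0.067 without both replicates 5. The r with Aldh1a2 ranged from -0.10 to 0.16 for Cyp26a1 (-0.10 without control replicate 1, -0.0021 without control replicate 4), from -0.24 to 0.10 for Crabp2 (0.013, 0.0094 and 0.10 without control replicates 1, 4 and 5) and from 0.56 to 0.90 for Stra6. Without the 2 samples farthest from the median of Aldh1a2 it was 0.075 for Crabp2 and 0.33 for Hoxb1 (-0.70 in all samples). The cause of these changes was not tested.

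The labels do not say what the replicate numbers mean. Deviations of same-numbered samples correlated at 0.094, -0.316, 0.165, 0.428 and 0.362, so the pairing is not established. With the replicate block, the number of called members was 0 and the fold change of Aldh1a2 -0.47 (SE 1.28).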
